A study of Mus musculus with 13 samples.

Results

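The Kruppel-like factors are zinc finger proteins that bind GC-rich and CACCC-type DNA through fingers at their C terminus. The 10 members described here (Klf2, Klf3, Klf4, Klf5, Klf6, Klf7, Klf9, Klf10, Klf13 and Klf15) were taken as a named list from the 18820 genes that the arrays measured with a probeset of a single gene symbol, each gene through its brightest such probeset. The study profiled mouse stomach cells on 13 arrays in 2 experiments. In the first, cells of the gastric corpus were sorted for a fluorescent reporter that an EGFP-ires-CreERT2 cassette places under control of the Tnfrsf19 (Troy) locus, giving reporter-positive chief cells (3 arrays, called chief a, b and c) and reporter-positive parietal cells (2 arrays), with whole corpus glands (2 arrays) as the reference. In the second, organoids grown from single sorted chief cells were kept either in a medium called EGFNWR, which holds Wnt3a, Rspondin, Noggin, EGF, FGF10 and gastrin (3 arrays), or in the ER medium, which keeps EGF and Rspondin and lacks the others (3 arrays). Each sorted array used about 100000 cells pooled from glands of 10 mice. The sorted cells, and so the organoids, carry the reporter allele, whereas the labels do not give the genotype of the gland donors, nor age for any group, and a protocol text of the labels speaks of intestine where all other labels name the gastric corpus. Chief cells secrete pepsinogen and parietal cells secrete acid.

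Within the family, Klf2, Klf4, Klf5, Klf6 and Klf7 are mostly known as activators, Klf3 as a repressor that recruits CtBP, and Klf9, Klf10 and Klf13 as factors that recruit the Sin3A corepressor, while Klf15 stands apart and is known for metabolic genes of fasting and glucocorticoid action. In gut epithelium Klf4 is known as a factor of differentiating, non-dividing cells and Klf5 as a factor of dividing crypt cells. Klf2, Klf4, Klf6 and Klf10 can be induced within minutes to hours by serum, growth factors or stress, and Klf9 by glucocorticoid.

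All values are log2 intensities, so a difference of 1 is a doubling. The array medians over all probesets lay between 5.01 and 5.3, and a gene below the median of its array is not shown to exceed background. Markers of both sorted types were present in both sorts: the mean level of 15 parietal cell genes was 9.76 to 11.15 on the chief arrays and 11.29 to 11.39 on the parietal arrays, and that of 7 measured chief cell genes was 10.09 to 10.45 and 9.51 to 9.61. The chief arrays were unlike each other. Across all probesets chief a had r = 0.978 and 0.966 with glands a and b, against 0.953 and 0.95 with chief b and c. Its mean over 7 genes of pit cells, the mucous surface lineage, was 11.88. That mean was 10.34 and 10.43 on chief b and c, and 12.13 and 12.47 on glands a and b. Over all probesets chief c had r = 0.979 and 0.982 with parietal a and b, against 0.95 and 0.961 with the other chief arrays, and chief b had a mean of 7.22 over 12 squamous forestomach genes, which was 4.44 to 4.83 on the other arrays of the first experiment. In samples of many cells, fewer cells of a type and less RNA per cell cannot be told apart. The labels do not say that organoid cultures came from separate animals, so p-values there measure the spread between arrays.

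Promoter sequences are shown for 5 of the 8 members that the RefSeq table (GRCm38.p6) holds, a table without Klf5 and Klf10. Klf4 and Klf6 are shown because they rose in ER medium, as Klf3 and Klf10 also did, Klf15 because it fell there, and Klf2 and Klf9 because they fell in EGFNWR organoids against chief cells. Each is the stretch of 250 bases just before the gene start, read 5′ to 3′ along the gene. Capitals mark 3 motifs, searched on both strands: the GC box, which reads GGGCGG, the CACCC-type word, which was searched as CCNCNCCC and can overlap the former, and the AP-1 word, which reads TGANTCA. The Klf4 stretch is chr4:55532476-55532725, minus strand, and that of Klf6 is chr13:5861239-5861488, plus strand. Klf15 is at chr6:90462326-90462575, plus strand, Klf2 at chr8:72318812-72319061, plus strand and Klf9 at chr19:23140976-23141225, plus strand.
Klf4: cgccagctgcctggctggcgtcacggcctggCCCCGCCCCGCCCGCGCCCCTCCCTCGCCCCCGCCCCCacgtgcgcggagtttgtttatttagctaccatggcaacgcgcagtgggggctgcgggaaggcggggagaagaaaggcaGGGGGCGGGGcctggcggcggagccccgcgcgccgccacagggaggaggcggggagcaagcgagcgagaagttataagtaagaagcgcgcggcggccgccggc
Klf6: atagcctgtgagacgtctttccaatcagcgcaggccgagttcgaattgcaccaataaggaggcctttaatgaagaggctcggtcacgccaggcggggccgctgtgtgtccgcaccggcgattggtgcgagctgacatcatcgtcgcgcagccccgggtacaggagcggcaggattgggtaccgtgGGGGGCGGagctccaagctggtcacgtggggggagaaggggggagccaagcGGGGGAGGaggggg
Klf15: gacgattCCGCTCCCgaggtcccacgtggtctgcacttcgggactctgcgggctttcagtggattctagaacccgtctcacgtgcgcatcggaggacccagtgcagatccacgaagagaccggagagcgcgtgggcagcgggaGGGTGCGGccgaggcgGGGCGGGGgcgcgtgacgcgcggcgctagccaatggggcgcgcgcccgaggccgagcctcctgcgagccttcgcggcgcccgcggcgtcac
Klf2: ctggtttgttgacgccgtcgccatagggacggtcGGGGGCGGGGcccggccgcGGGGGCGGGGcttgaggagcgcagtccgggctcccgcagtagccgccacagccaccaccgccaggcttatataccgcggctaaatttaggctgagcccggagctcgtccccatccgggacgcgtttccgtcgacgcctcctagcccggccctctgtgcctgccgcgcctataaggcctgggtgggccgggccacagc
Klf9: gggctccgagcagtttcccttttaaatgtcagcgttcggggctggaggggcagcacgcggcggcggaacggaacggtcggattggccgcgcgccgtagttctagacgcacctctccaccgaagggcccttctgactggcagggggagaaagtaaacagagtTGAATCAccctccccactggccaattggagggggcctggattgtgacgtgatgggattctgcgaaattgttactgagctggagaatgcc
A GC box stood in 7 of 8 members' stretches and in 32.7% of all 32851 promoter stretches of the same length, and a CACCC-type word in 7 of 8 and 45.9%. Klf9 was the member without either and the only one with an AP-1 word, which 6.75% of all stretches held. An E-box (CACGTG) stood in those of Klf4, Klf6 and Klf15, against 6.02% of all stretches. No member's stretch held TATAAA (12.4% of all), TGACGTCA (1.55%) or a CArG box (1.47%). The members' stretches had 59.2 to 78.4% G and C, against a median of 52.4% over all stretches.

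**Figure D1:**
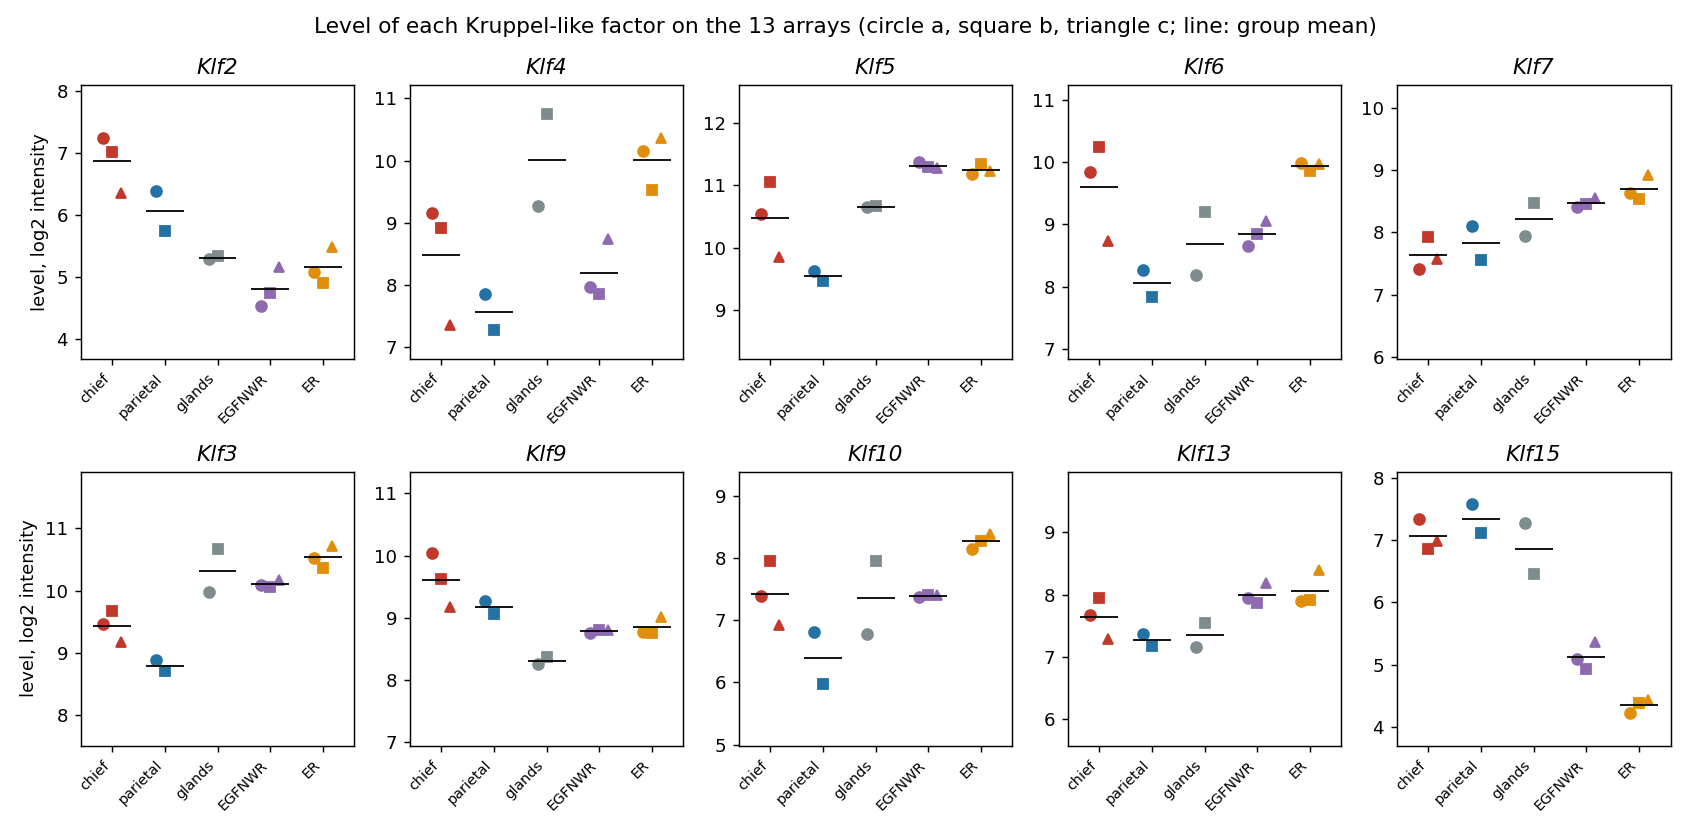
Level of each of the 10 genes on the 13 arrays by group, in log2 intensity, with the group mean as a line. Every panel spans the same number of log2 units around its own centre. Klf3, Klf4, Klf6 and Klf10 stood higher on all ER arrays than on any EGFNWR array. Klf15 stood lower, and below the array median on all ER arrays.

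Among the activators, Klf4 had the second widest span of the 10 between group means, 2.45. It was 9.16, 8.92 and 7.36 on chief a, b and c, 7.85 and 7.28 on the parietal arrays and 9.27 and 10.75 on the gland arrays. In organoids it was 7.97, 7.85 and 8.74 in EGFNWR medium and 10.15, 9.52 and 10.37 in ER medium. ER organoids and glands thus stood at the top with overlapping values and means of 10.01 each, every chief array lay below both gland arrays, and chief c lay among the parietal arrays.

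Klf6, a stress- and growth factor-induced activator, was 9.84, 10.24 and 8.73 in chief cells, 8.26 and 7.84 in parietal cells and 8.18 and 9.20 in glands. It was 8.65, 8.84 and 9.05 in EGFNWR organoids and 9.98, 9.86 and 9.97 in ER organoids. The ER arrays and chief a and b formed the high end, and the parietal arrays overlapped only with glands.

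Klf2, best known from endothelium and lymphocytes, was 7.24, 7.02 and 6.36 in chief cells, 6.38 and 5.74 in parietal cells and 5.29 and 5.34 in glands. Organoids were at 4.54, 4.74 and 5.16 in EGFNWR and 5.09, 4.90 and 5.49 in ER medium. All 5 sorted arrays lay above both glands and all organoids, while 2 EGFNWR arrays and 1 ER array were below the array median. The endothelial genes Pecam1, Cdh5, Kdr, Tek, Tie1, Emcn and Cldn5 were below the array median on all 13 arrays, and the mean of the 10 endothelial genes was 4.41 to 4.98 in chief cells, 4.88 to 5.01 in parietal cells and 4.34 to 4.46 in glands. The other endothelial genes were Vwf, Plvap and Esam. Against glands, 3 of the 10 were higher in parietal cells and 1 in chief cells at an unadjusted p under 0.05, and none passed limma's adjusted threshold. Esam was 2.16 higher in parietal cells (SE 0.57, adjusted p = 0.0966) and 1.17 higher in chief cells (SE 0.52, adjusted p = 0.341), and Plvap differed by 1.63 (SE 0.68) and -0.33 (SE 0.62). The part of these genes' cells in the Klf2 levels was not tested. Of 9 leukocyte genes, 8 were below the median on all chief arrays, 9 on all parietal arrays and 9 on all gland arrays.

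Klf5 was 10.54, 11.06 and 9.85 in chief cells, 9.62 and 9.46 in parietal cells and 10.65 and 10.67 in glands. Organoids were tight at the top, with 11.37, 11.29 and 11.28 in EGFNWR and 11.18, 11.34 and 11.23 in ER medium. Parietal cells were below every other array. Klf7, an activator studied mainly in neurons and fat, ran from 7.41 in chief a to 8.93 in ER c, with group means of 7.64 in chief cells, 7.83 in parietal cells, 8.21 in glands, 8.47 in EGFNWR and 8.70 in ER organoids, and each group overlapped its neighbour in that order.

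The CtBP-binding repressor Klf3 was 9.46, 9.67 and 9.17 in chief cells, 8.88 and 8.70 in parietal cells and 9.97 and 10.67 in glands. It was 10.09, 10.05 and 10.17 in EGFNWR and 10.53, 10.37 and 10.72 in ER organoids. Parietal cells, chief cells and the remaining groups formed 3 levels without overlap. A second, dimmer probeset of Klf3 had group means of 5.15 in chief cells, 5.03 in parietal cells, 5.37 in glands, 5.13 in EGFNWR and 5.56 in ER organoids, close to the array medians.

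Of the Sin3A-binding members, Klf9 was 10.04, 9.63 and 9.18 in chief cells, 9.28 and 9.07 in parietal cells and 8.26 and 8.37 in glands. EGFNWR organoids had 8.76, 8.81 and 8.80 and ER organoids 8.78, 8.75 and 9.02. Sorted cells were above organoids, and organoids above glands, with no overlap between these 3 levels. A second, dimmer probeset also had sorted cells highest, with means of 5.82 in chief and 6.17 in parietal cells, but placed organoids below glands, at 4.4 in EGFNWR and 4.83 in ER medium against 5.01, with every gland and organoid array but ER c below its median.

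Klf10, which is induced by TGF-beta, was 7.38, 7.95 and 6.92 in chief cells, 6.81 and 5.98 in parietal cells and 6.77 and 7.95 in glands, so the groups of the first experiment overlapped except chief and parietal cells. EGFNWR organoids were at 7.37, 7.40 and 7.40 and ER organoids at 8.14, 8.27 and 8.39, above every other array. Klf13 varied least, with a span of 0.79 between group means: 7.63 ± 0.34 (SD, n = 3) in chief cells, 7.27 ± 0.14 (SD, n = 2) in parietal cells, 7.36 ± 0.28 (SD, n = 2) in glands, 8.00 ± 0.16 (SD, n = 3) in EGFNWR and 8.06 ± 0.28 (SD, n = 3) in ER organoids.

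Klf15 had the widest span of the 10, 3.00. It was 7.34, 6.86 and 6.98 in chief cells, 7.58 and 7.11 in parietal cells and 7.27 and 6.46 in glands, all overlapping. Organoids were at 5.09, 4.93 and 5.36 in EGFNWR and 4.22, 4.39 and 4.43 in ER medium. Both organoid groups lay below all tissue arrays and apart from each other, with 2 EGFNWR arrays and all 3 ER arrays below the array median, where the size of a difference is open.

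**Figure D2:**
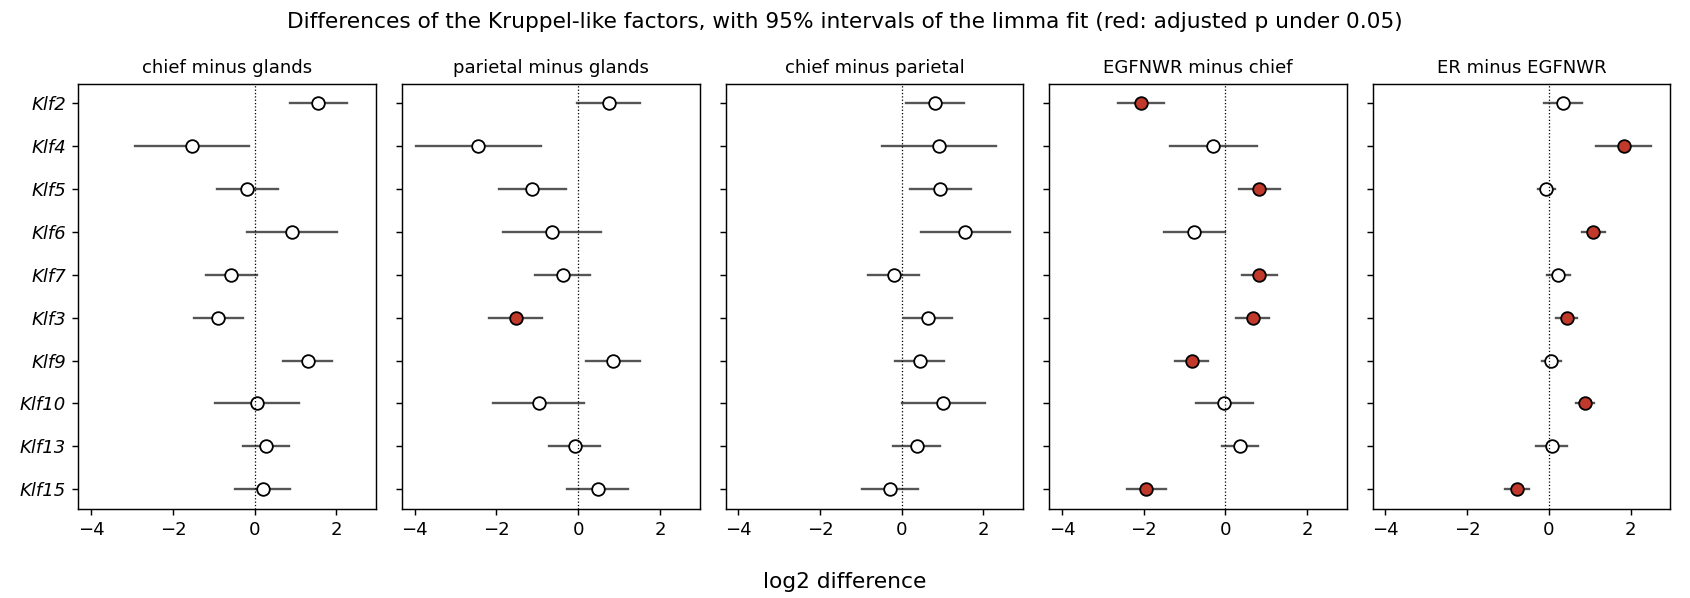
Log2 difference of each gene in the 5 comparisons, with the 95% interval of the limma fit; filled red points passed an adjusted p of 0.05 over all 18820 genes. In ER against EGFNWR organoids Klf3, Klf4, Klf6 and Klf10 were higher and Klf15 lower, whereas chief cells against glands or parietal cells had no member past the threshold. Klf15 was below the array median on all ER arrays, so the size of its fall is open.

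The organoid comparison addresses what changes when Wnt3a, Noggin, FGF10 and gastrin are left out. In ER medium 4 of 10 members rose and 1 fell. Klf4 rose by 1.83 (SE 0.29, limma adjusted p = 0.00655), a fold of 3.55. Klf6 rose by 1.09 (SE 0.12, adjusted p = 0.00446) and Klf10 by 0.88 (SE 0.09, adjusted p = 0.00446), and for these 3 genes all ER arrays lay above all EGFNWR arrays. Klf3 rose by 0.44 (SE 0.11, adjusted p = 0.031), also with no overlap. Klf15 fell by 0.78 (SE 0.13, adjusted p = 0.00753), again with no overlap. It lay below the array median on all 3 ER arrays and 2 EGFNWR arrays, so the size of this fall is open. Over all genes 19.2% passed, 9.13% upward and 10.1% downward, and the ER arrays lay wholly above the EGFNWR arrays for 17.8% of genes and for the 4 called upward, and wholly below for 18.2% and for Klf15. The median difference was 0.29 over the members and 0.01 over all genes. Compared letter by letter, ER exceeded EGFNWR by 2.18, 1.67 and 1.63 for Klf4, by 1.33, 1.02 and 0.92 for Klf6 and by 0.77, 0.87 and 0.99 for Klf10.

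The other members did not pass. Klf5, which is bright in both media, differed by -0.06 with a 95% interval from -0.27 to 0.14, and Klf9 by 0.06 with an interval from -0.17 to 0.29. Klf13 differed by 0.07 (interval -0.30 to 0.44), Klf7 by 0.23 (interval -0.05 to 0.51) and Klf2 by 0.35 (interval -0.12 to 0.82). The call of Klf3 was lost without EGFNWR a (adjusted p = 0.102), EGFNWR b (0.105), EGFNWR c (0.0522), ER a (0.0901) or ER c (0.0666), and with every probeset tested (0.0628). In a fit with all 13 arrays, whose spread includes the sorted cells, Klf3, Klf6 and Klf10 missed the threshold (adjusted p = 0.195, 0.074 and 0.117), while Klf4 and Klf15 passed.

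Other gene groups moved in the same contrast. All 7 pit cell genes, of the mucous surface lineage, rose in ER medium, among them Muc5ac by 3.82 (SE 0.79) and Gkn1 by 3.69 (SE 0.63), and their mean level was between 8.99 and 10.88 on the EGFNWR arrays and between 11.64 and 12.32 on the ER arrays. All 12 measured proliferation genes fell, with Mki67 down by -2.12 (SE 0.35) and a mean level of 8.50 to 8.83 in EGFNWR and 6.51 to 7.53 in ER medium. Of 5 mucous neck cell genes 4 fell, among them Muc6 (-4.31, SE 1.01) and A4gnt (-3.78, SE 0.69), and Tff2 rose by 1.99 (SE 0.48). Of 7 chief cell genes 4 fell, among them Pgc (-3.38, SE 0.64) and Bhlha15 (-2.63, SE 0.31). The part of these cell programmes in the Klf differences was not tested. Across the 13 arrays glands b had both the highest mean over the pit cell genes, 12.47, and the highest Klf4. The 3 lowest means, of EGFNWR a and b and chief b at 8.99 to 10.34, came with Klf4 at 7.97, 7.85 and 8.92, whereas the lowest Klf4, on parietal b, came with a mean of 10.56.

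**Figure D3:**
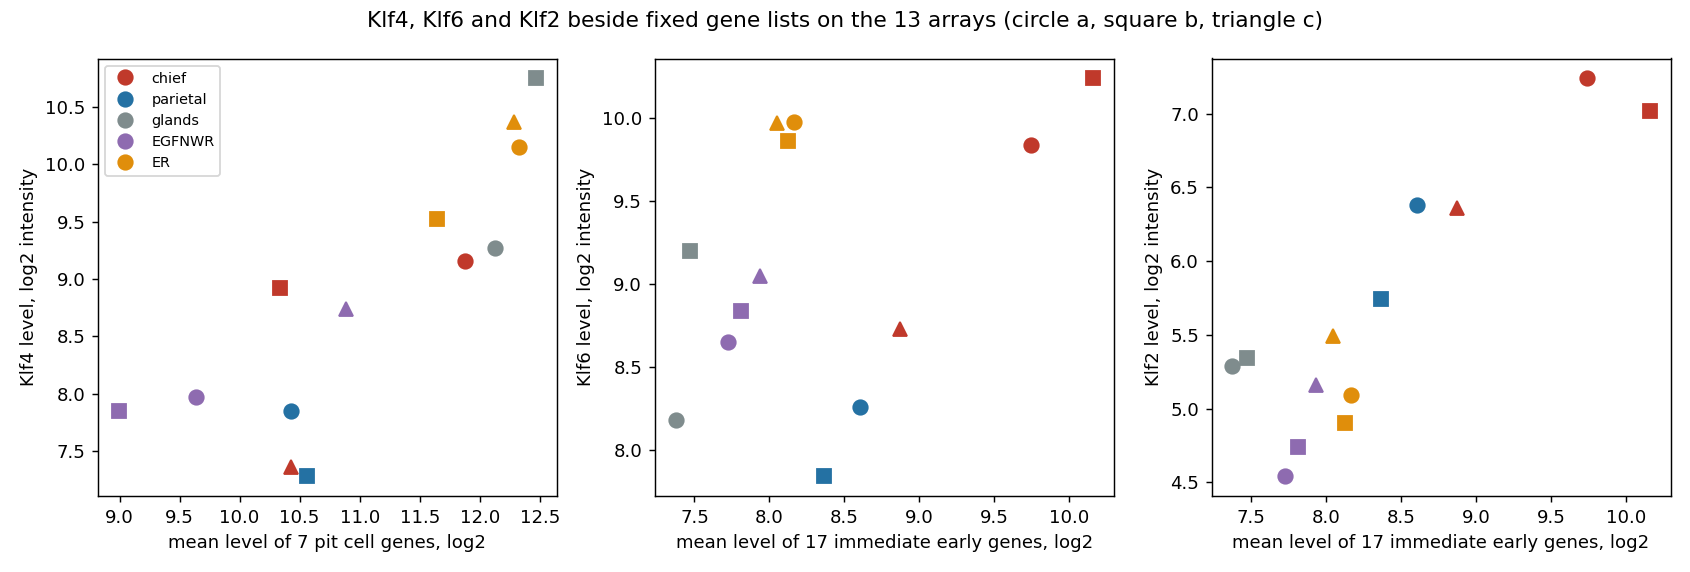
Each point is an array: Klf4 against the mean level of 7 pit cell genes, and Klf6 and Klf2 against the mean level of 17 immediate early genes, all in log2 units. Klf4 was highest on glands b, ER a and ER c, the 3 arrays with the highest pit cell means. Glands a and chief a had higher pit cell means than ER b (12.13 and 11.88 against 11.64) but lower Klf4 (9.27 and 9.16 against 9.52). Klf2 was highest on chief a and b, where immediate early genes were highest. Klf6 on the ER arrays was as high as on chief a at much lower immediate early levels.

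Of the 17 measured serum response and immediate early genes, 7 rose in ER medium and 1 fell. Ier3 rose by 1.03 (SE 0.12), the RNA-binding Zfp36 by 0.93 (SE 0.11) and Fos by 0.86 (SE 0.15), while Jun fell by 0.93 (SE 0.14). Of 12 Klf cofactors and ubiquitin ligases 2 rose and 2 fell: Smurf1 by 0.64 (SE 0.10) and Fbxw7, which targets Klf5 for degradation, by 0.58 (SE 0.11) upward, and Wwp1, another ligase for Klf2 and Klf5, by -0.65 (SE 0.11) and the deacetylase Hdac2 by -0.58 (SE 0.15) downward. Of 13 measured glucocorticoid and circadian target genes 3 rose (Pdk4 by 2.09, SE 0.30; Sgk1 by 1.55, SE 0.20; Per3 by 0.65, SE 0.09) and Fkbp5 fell by 0.58 (SE 0.11). Of 12 measured genes known as targets of Klf factors, Krt4, a Klf4-linked keratin that is also in the squamous list, rose by 1.56 (SE 0.43) and Prodh, a proline-degrading enzyme linked to Klf15, fell by 0.71 (SE 0.14). The cell cycle inhibitor Cdkn1a is in this list and did not pass. Of 15 other measured Klf and Sp genes, Klf11, a Sin3A-binding relative of Klf10, rose by 0.76 (SE 0.13) and Sp5, a Wnt target, fell by 1.13 (SE 0.28).

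Sorted chief cells were compared with whole glands to see what sets the reporter-positive cells apart. No member passed limma's threshold over all genes, where 0.478% did. At an unadjusted p under 0.05, 4 of 10 members differed, a share to be read against 15.0% of all genes: Klf2 was 1.56 higher (SE 0.30, adjusted p = 0.0872) and Klf9 1.3 higher (SE 0.26, adjusted p = 0.0904), and Klf3 and Klf4 differed by -0.89 (SE 0.26, adjusted p = 0.193) and -1.53 (SE 0.60, adjusted p = 0.303). For these 4 genes and Klf7 the groups did not overlap, as for 31.4% of all genes. The median difference was 0.13 over the members and 0.05 over all genes. Without glands b, Klf4 differed by -0.79 and Klf3 by -0.54 (adjusted p = 0.957 for both), and without chief c Klf4 differed by -0.97 (adjusted p = 0.373). Without glands a these differences were -2.27 for Klf4 and -1.24 for Klf3 (adjusted p = 0.206 and 0.11). Without chief c, Klf2 (1.82, adjusted p = 0.033) and Klf9 (1.52, adjusted p = 0.0341) passed, while leaving out any other array of these groups gave adjusted p from 0.0809 to 0.535 for Klf2 and from 0.0661 to 0.535 for Klf9. With all 13 arrays in a single fit, Klf2, Klf9 and Klf3 passed (adjusted p = 0.0113, 0.00514 and 0.0313), and Klf9 passed with array weights (adjusted p = 0.0491).

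The remaining members had intervals that included 0. Klf6 was 0.91 higher (interval -0.18 to 2.01), Klf7 differed by -0.57 (interval -1.19 to 0.05), and Klf5, Klf10, Klf13 and Klf15 by -0.18, 0.06, 0.28 and 0.20. Immediate early genes moved in the same contrast: 7 of 17 rose and none fell, with Fosb up by 5.19 (SE 0.59), Atf3 by 5.14 (SE 0.22), the phosphatase Dusp1 by 3.52 (SE 0.27) and Egr1 by 2.97 (SE 0.43), and their mean level was 8.87 to 10.16 in chief cells and 7.37 to 7.47 in glands. Per the labels the sorted cells had been trypsinized and sorted and the glands processed directly, so handling and cell type cannot be told apart. In the glucocorticoid and circadian list none of 13 genes passed limma's test and 5 were higher at an unadjusted p under 0.05; its brightest genes, Nr1d2 and Tsc22d3, were 0.86 (SE 0.33) and 0.25 (SE 0.20) higher. None of 15 other Klf and Sp genes passed limma's test, with 2 higher and 1 lower at an unadjusted p under 0.05, and the brightest, Sp3 and Sp1, differed by -0.16 (SE 0.25) and -0.40 (SE 0.32). None of 12 cofactors passed limma's test (1 higher and 2 lower at an unadjusted p under 0.05; Hdac3 -0.32, SE 0.18, and Ctbp1 0.12, SE 0.17), nor did any of 12 known targets (2 higher at an unadjusted p under 0.05; Cdkn1a, the brightest, -0.90, SE 0.57). The pit cell list had a median difference of -1.59 with none past limma's threshold (5 lower at an unadjusted p under 0.05), beside a Klf4 difference of the same sign. Of 9 tuft cell genes 4 fell, among them Rgs13 (-3.56, SE 0.22) and Dclk1 (-2.53, SE 0.23). Of 10 enteroendocrine genes 2 fell (Hdc and Sst), and of 5 mucous neck cell genes Gkn3 rose by 2.43 (SE 0.37). The part of these cell types in the Klf differences was not tested.

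In parietal cells against glands, Klf3 fell by 1.53 (SE 0.28, limma adjusted p = 0.0463), a fold of 2.89, and was the only member past the threshold, where 1.62% of all genes passed, 1.39% downward. At an unadjusted p under 0.05, 4 of 10 members differed (Klf3, Klf4, Klf5 and Klf9), against 20.9% of all genes, and the groups did not overlap for 5 members and 66.4% of all genes. The median difference was -0.51 over the members and 0.14 over all genes. The call of Klf3 was lost without parietal a (adjusted p = 0.32), parietal b (0.32) or glands b (0.29), with quantile normalization repeated (0.0637), with arrays centred on their median (0.0516) and with every probeset tested (0.0823). Klf4 differed by -2.45 (SE 0.66, adjusted p = 0.103), the largest of the members, with both parietal arrays below both gland arrays. Beside it the 7 pit cell genes had a median difference of -2.28, with Foxq1 past limma's threshold (-3.39, SE 0.56) and 5 lower at an unadjusted p under 0.05. The 12 proliferation genes had a median of -2.40, with Ccnb2 (-3.34, SE 0.55) and Bub1 (-2.98, SE 0.54) past the threshold and 11 lower at an unadjusted p under 0.05. Of 9 tuft cell genes 5 fell and of 10 enteroendocrine genes 2 fell (Hdc and Sst). The part of these cell types in the Klf3 and Klf4 differences was not tested. Klf5 differed by -1.12 (SE 0.36, adjusted p = 0.141) and Klf9 by 0.86 (SE 0.29, adjusted p = 0.154). Klf4, Klf5 and Klf9 passed with all 13 arrays in a single fit, with only these groups and with array weights, with adjusted p between 0.012 and 0.0289. Klf2 was 0.75 higher (interval -0.03 to 1.52), Klf10 differed by -0.97 (interval -2.08 to 0.15) and Klf6 by -0.64 (interval -1.84 to 0.56). Klf7 differed by -0.38 (interval -1.06 to 0.30), Klf13 by -0.09 (interval -0.71 to 0.54) and Klf15 by 0.48 (interval -0.26 to 1.22). Among immediate early genes 3 of 17 rose, Atf3 by 4.01 (SE 0.24), Fosb by 3.61 (SE 0.65) and Dusp1 by 2.44 (SE 0.30). Of the glucocorticoid and circadian genes, the other Klf and Sp genes, the cofactors and the known targets none passed limma's test, and 3, 4, 3 and 2 differed at an unadjusted p under 0.05. Ccnd1 differed by -1.39 (SE 0.33) and Sp1 by -1.03 (SE 0.35), the largest among the brightest genes of these lists. This comparison shares its gland arrays with that of chief cells, so the values stand side by side and are not independent.

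Chief cells and parietal cells were compared as the sorted types. No gene passed limma's threshold (0 of 18820, 0% called), and 2281 genes, 12.1%, had an unadjusted p under 0.05. Of the members 5 were higher in chief cells at that level and none lower, against 5.86% of all genes higher and 6.26% lower. The groups did not overlap for 4 members (Klf3, Klf5, Klf6 and Klf10) and 30.1% of all genes, and the median difference was 0.73 over the members and -0.05 over all genes. Klf6 was 1.55 higher (SE 0.47, adjusted p = 0.348), Klf10 1.02 (SE 0.44, adjusted p = 0.412), Klf5 0.94 (SE 0.32, adjusted p = 0.36), Klf2 0.81 (SE 0.30, adjusted p = 0.373) and Klf3 0.64 (SE 0.26, adjusted p = 0.39). Klf4 differed by 0.92 (interval -0.49 to 2.32), Klf9 by 0.44 (interval -0.16 to 1.05) and Klf13 by 0.36 (interval -0.20 to 0.93), while Klf7 and Klf15 differed by -0.19 and -0.29. Without chief c, the array that resembled the parietal ones, Klf6 (1.99, adjusted p = 0.0245) and Klf5 (1.26, adjusted p = 0.0232) passed. Without chief b, the array with squamous genes and the highest for both, Klf6 differed by 1.24 and Klf5 by 0.66 (adjusted p = 0.664 and 0.666). Without parietal b, Klf2 differed by 0.49 and Klf10 by 0.61 (adjusted p = 0.898 and 0.912). The immediate early list, with a mean level of 8.87 to 10.16 in chief and 8.36 to 8.61 in parietal cells, had no gene past limma's threshold and 13 of 17 higher in chief cells at an unadjusted p under 0.05; its brightest genes were Btg2, 1.31 higher (SE 0.36), and Jun, 0.96 higher (SE 0.32). Of the proliferation genes 11 of 12 were higher in chief cells at an unadjusted p under 0.05, and none passed limma's threshold. At that level all 5 mucous neck cell genes and 3 of 7 chief cell genes were also higher. In the other direction, 2 of 15 parietal cell genes were lower. The part of these cell programmes in the Klf differences was not tested. None of the other pathway lists had a gene past limma's threshold either, with 1 of 13 glucocorticoid and circadian genes lower, 1 of 12 known targets higher and no cofactor or other Klf or Sp gene at an unadjusted p under 0.05.

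Organoids in EGFNWR medium were set against the chief cells from which such cultures grow. The groups lie in different experiments, and per the labels the chief cells had been trypsinized and sorted. Culture, handling and experiment thus cannot be told apart, and 40.3% of all genes passed. Of the members 3 rose and 3 fell. Klf15 fell by 1.93 (SE 0.22, limma adjusted p = 4.88e-05) and Klf2 by 2.06 (SE 0.26, adjusted p = 9.59e-05), folds of 3.82 and 4.17 whose size is open since both lay below the median on 2 of 3 EGFNWR arrays. Klf9 fell by 0.83 (SE 0.18, adjusted p = 0.00405). Klf7 rose by 0.83 (SE 0.20, adjusted p = 0.00572), Klf5 by 0.83 (SE 0.23, adjusted p = 0.0132) and Klf3 by 0.67 (SE 0.19, adjusted p = 0.0138). The 6 called members were those whose groups did not overlap, as for 48.1% of all genes. The share of genes called was 24.1% upward and 16.2% downward, and centring arrays on their median, which moves every difference by 0.14, turned the upward part of the calls from 59.8% to 74.1% while the same 6 members passed.

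All 7 chief cell genes and 12 of 15 parietal cell genes also fell in this comparison. Of 12 measured proliferation genes 7 rose and none fell. Among 10 enteroendocrine genes 7 fell and 1 rose, and among 12 squamous forestomach genes 4 rose and 2 fell. The part of these cell programmes in the Klf differences was not tested. Klf6 differed by -0.76 (SE 0.34, adjusted p = 0.098) and fell by 1.19 without chief c (adjusted p = 0.00489). Klf5 rose by 0.51 if chief c was left out and by 1.12 if chief b was, and with only these groups in the fit it did not pass (adjusted p = 0.0667). Klf4 differed by -0.29 (interval -1.36 to 0.77), Klf10 by -0.03 (interval -0.72 to 0.67) and Klf13 by 0.36 (interval -0.07 to 0.80). In the same contrast 13 of 17 immediate early genes fell, among them Fosb (-6.51, SE 0.44) and Fos (-2.91, SE 0.34), and 2 rose. Likewise 8 of 13 glucocorticoid and circadian target genes fell and 1 rose, among them Pdk4 (-3.97, SE 0.43), Sgk1 (-2.37, SE 0.38), Tsc22d3 (-2.05, SE 0.15) and Per1 (-1.17, SE 0.28). Of the other Klf and Sp genes 2 rose and 3 fell. Klf12, a CtBP-binding relative of Klf3, fell by 3.58 (SE 0.37), Sp4 by 1.44 (SE 0.12) and Klf11 by 0.93 (SE 0.16), while Sp5 rose by 0.68 (SE 0.24). Of 12 cofactors and ligases 4 rose, among them Smurf1 by 1.70 (SE 0.20) and the deacetylases Hdac1 by 1.58 (SE 0.22) and Hdac3 by 1.13 (SE 0.15), and 3 fell, Crebbp by 0.88 (SE 0.18). Of 12 known targets 3 rose, Krt4 by 3.53 (SE 0.68), cyclin D1 (Ccnd1) by 2.18 (SE 0.25) and Cdkn1a by 1.91 (SE 0.41), and the glucose transporter gene Slc2a4, linked to Klf15, fell by 3.45 (SE 0.75).

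Members were also compared among themselves and with all genes by their pattern over the 13 arrays, which share groups and experiments, so that r is a description. The closest members were Klf6 and Klf10 (Pearson r = 0.887, n = 13), Klf3 and Klf5 (0.843) and Klf2 and Klf9 (0.837), and the most opposed Klf7 and Klf15 (-0.835). Among all genes, those nearest to Klf4 were Slc2a10, Abcb6 and Zbtb7c (r = 0.978, 0.975 and 0.972), those nearest to Klf6 were Nfkbiz, Irf1 and Btg2 (0.917, 0.917 and 0.914), and those nearest to Klf10 were Sfn, Rnd3 and Pi4k2b (0.957, 0.930 and 0.930). Klf2 was nearest to Cd177, Gem and Creg2 (0.969, 0.963 and 0.960), Klf9 to Per1, Jund and Dnajb1 (0.966, 0.948 and 0.935) and Klf15 to Fam234b, Stard13 and Slc44a3 (0.988, 0.986 and 0.984). For Klf3 these were Stxbp6, Serpinb8 and Plcd1 (0.985, 0.984 and 0.984), for Klf5 Gas2l3, Morf4l2 and Epcam (0.986, 0.983 and 0.982) and for Klf7 Net1, Xaf1 and Dhx58 (0.944, 0.937 and 0.933).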

How the data were processed

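Total RNA (100 to 300 ng per array, per the labels' protocols) was labelled for Affymetrix gene arrays. The authors deposited log2 values for 35556 probesets on 13 arrays, made with RMA and Affymetrix Power Tools per the submitters' processing notes; their versions are not given in these sources. RMA makes the arrays' distributions nearly alike, which hides a shift common to most transcripts, and no detection calls were used. Of the probesets, 21218 had a single gene symbol in the platform annotation, 1881 had several and 12457 had none. For each of 18820 genes the brightest of these single-symbol probesets, by its mean level across all 13 arrays, was used.

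Groups followed the sample titles. Group means were fitted in R 4.3.3 with the package limma 3.58.1 (functions lmFit and eBayes): the 7 arrays of the first experiment together, the 6 organoid arrays together, and all 13 arrays for organoids against chief cells. P-values were adjusted over all 18820 genes by Benjamini-Hochberg, with a threshold of 0.05, and intervals are 95% intervals of the fit. The fits were tested on simulated data with 200 of 18820 genes changed. Of changes of 1 log2 unit, 22% were called for chief cells against glands and 12% for parietal cells against glands. For chief against parietal cells 15% were, for ER against EGFNWR organoids 79%, and for EGFNWR organoids against chief cells 67%. Changes of 2 units were called in 72 to 97%, and 3.03 to 7.48% of calls were false. The simulated noise was independent between genes, unlike shifts that many genes of an array share. Far fewer genes were changed than the real organoid comparisons called (19.2% for ER against EGFNWR, 40.3% for EGFNWR against chief cells). These shares thus describe the simulation and need not hold for the real arrays. The members and gene lists were chosen with earlier results of these data known. Named genes were the members, up to 4 genes past the threshold per list or else the 2 brightest, and the 3 genes with the highest Pearson r for members spanning at least 1 log2 unit between group means; of lists with no gene past the threshold the text gives counts and some of those genes. Deviations of organoid arrays of the same letter from their group means correlated at 0.184, 0.233 and 0.386, and those of other letters at -0.305 to 0.146. Deviations within a group of 3 arrays cancel out, which pushes some values below the others. The correlations therefore cannot settle whether the organoid letters pair arrays. The labels state no pairing, and the fits leave it out. With 2 or 3 arrays in a group, their number limits precision.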

Additional observations from a re-analysis of the deposited data

How the results depend on the processing

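Of 737 repeats of the 50 differences between groups (10 members in 5 comparisons), 681 kept direction and side of the threshold, 16 lost a call, 25 gained one and 15 changed sign. In ER against EGFNWR organoids Klf4 ranged from 1.65 to 2.10 and Klf15 from -0.88 to -0.66, both past the threshold in every repeat that measured them; Klf15 was left out with the dim genes. The replicate block, with organoid letters as pairs, gave 4448 genes against 3613 and the same 5 members. The main fits took no letters of the first experiment as pairs either (same-letter correlations -0.194 to 0.263). In a group of 2 arrays the deviations are mirror images, so these correlations cannot settle whether the letters pair arrays. With the replicate block, where chief c drops out, chief cells against glands gave 223 genes and 2 members. Parietal cells against glands gave 1599 and 3. Chief against parietal cells gave 1650 and 3, with Klf2 at 1.07, Klf5 at 1.26 and Klf6 at 1.99.

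For chief cells against glands, 90 genes and 0 members became 58 genes with quantile normalization repeated, 146 and 1 with array weights, 1215 and 3 with all 13 arrays, 22 genes with only these groups and 52 with every probeset tested; leaving out an array gave 17 to 438 genes and 0 to 2 members. For parietal cells against glands, 304 genes and 1 member became 109 and 0 with quantile normalization repeated, 0 members with arrays centred on their median, 3202 and 4 with array weights, 2707 and 4 with all 13 arrays, 2713 and 4 with only these groups and 66 and 0 with every probeset tested; leaving out an array gave 2 to 408 genes and 0 to 1 members. For chief against parietal cells all 13 arrays gave 166 genes, and leaving out an array 0 to 1319 genes and 0 to 2 members. For ER against EGFNWR all 13 arrays gave 1705 genes and 2 members, and leaving out an array 1900 to 3518 genes. For EGFNWR organoids against chief cells every probeset tested gave 11568 against 7587. Causes were not tested.

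Signs turned for Klf5 in chief cells against glands (0.14 with the replicate block, -0.47 to 0.14 with an array left out), where Klf10 ran from -0.53 to 0.65 and Klf15 from -0.21 to 0.60. They turned for Klf13 in parietal cells against glands (0.0329 with quantile normalization repeated, -0.28 to 0.11 with an array left out) and for Klf7 in chief against parietal cells (-0.47 to 0.0867). In ER against EGFNWR Klf5 was 0.0151 with quantile normalization repeated, Klf9 ran from -0.025 to 0.11 and Klf13 from -0.10 to 0.16. In EGFNWR against chief cells Klf10 was 0.11 with arrays centred and ran from -0.28 to 0.24, and Klf4 from -0.85 to 0.0467.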

Other observations

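Within groups the members' positions by array were as follows. Chief c was the lowest chief array for 8 of 10 members (all but Klf7 and Klf15) and the highest for none, whereas it was the lowest for 32.05% of all genes. For the same 8 members chief c was nearer to the parietal mean than to the mean of chief a and b, which held for 65.97% of all genes. Chief b, the array with squamous genes, was the highest chief array for 6 members (Klf3, Klf5, Klf6, Klf7, Klf10 and Klf13), against 29.1% of all genes, and chief a for the other 4, against 30.66%. Parietal a exceeded parietal b for all 10 members, against 50.13% of all genes, and glands b exceeded glands a for 9, all but Klf15, against 47.9%. ER c was the highest ER array for 8 members, against 39.32% of all genes, ER b the lowest for 6, against 32.11%, and EGFNWR c the highest EGFNWR array for 7, against 33.89%. These counts were made after the values were seen, and members of 1 array are not independent.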
